A study of Mus musculus with 2 samples.

Results

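The genes described here encode 10 heterogeneous nuclear ribonucleoproteins (hnRNPs): Hnrnpa1, Hnrnpa2b1, Hnrnpab, Hnrnpc, Hnrnpd, Hnrnph1, Hnrnpk, Hnrnpl, Hnrnpm and Hnrnpu, of 21887 protein-coding genes on the mouse chromosomes. They were chosen from earlier results because peaks lay in them, so the peak counts, positions, spacings, widths and scores below are descriptions with no test. A peak belonged to a gene when its midpoint fell in the RefSeq span (GRCm38.p6) or within 10 kb of it. This gave 24 of the 2251 WT peaks and 1 of the 1153 KO peaks.

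The study profiled binding of KLF4, a zinc finger transcription factor, by chromatin immunoprecipitation and sequencing (ChIP-seq) in frozen atherosclerotic lesion tissue. There was 1 library labelled WT and 1 labelled KO, both from C57BL/6 mice fed a Western diet and both made with the same antibody, labelled GKLF, another name for KLF4. The labels give neither the deleted gene, the cells it was deleted in, nor the age and number of the animals, and they call the sample mixed, with smooth muscle cells, epithelial cells, macrophages and others. With a single library per genotype, every difference between the lists lacks a replicate check, and where a peak is absent, nothing passed the authors' threshold there, which does not show absence of binding. Peak lists do not measure expression, so they give no direct check of the tissue. Of 5 marker genes each, 3 smooth muscle, 2 macrophage, 1 epithelial and 0 endothelial genes had a WT peak within 10 kb. Over all protein-coding genes the share was 6.22%. The macrophage peaks lay outside the 2 genes' spans, and a smooth muscle peak also lay in the span of another gene. In KO no marker gene had a peak, against 2.34% of all protein-coding genes. No read counts come with the lists, and the sequencing depth is unknown.

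The hnRNPs are abundant nuclear proteins that coat newly made transcripts and steer splicing, export and stability of the RNA. Most bind RNA through RNA recognition motifs, while hnRNP K uses KH domains and hnRNP U also binds DNA and chromatin. In smooth muscle, as in other tissues, they act in the choice of splice isoforms.

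All 10 genes held a WT peak, against 6.22% of all protein-coding genes, and 1 of the 10 held a KO peak, against 2.34%. Since the genes were picked for their peaks, nothing is read from these shares. All 24 WT peaks and the KO peak lay inside the gene spans, and none of the former (0 of 24) overlapped any KO peak. The overlap over the whole WT list is not given here, so nothing about these genes is read from that count. A WT peak without a KO peak was seen at 9 of the 10 genes. Of the 1362 protein-coding genes with a WT peak, 1206 likewise had no KO peak (5.51% of all protein-coding genes). Hnrnpa2b1 held 5 WT peaks, Hnrnpd and Hnrnpk 4 each, Hnrnpm 3, Hnrnph1 and Hnrnpu 2 each, and Hnrnpa1, Hnrnpab, Hnrnpc and Hnrnpl 1 each. The 3 genes with 4 or more peaks thus carried 13 of the 24. Among all protein-coding genes, 1.82% had 2 or more WT peaks, 0.347% had 4 or more and 0.169% had 5 or more. Of the 10 genes, 6 held 2 or more, compared with 28.2% of 819 other protein-coding genes with a WT peak in the span. None of the 24 WT peaks fell in the promoter windows of these genes, the 300 bases around each RefSeq transcript start.

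**Figure D1:**
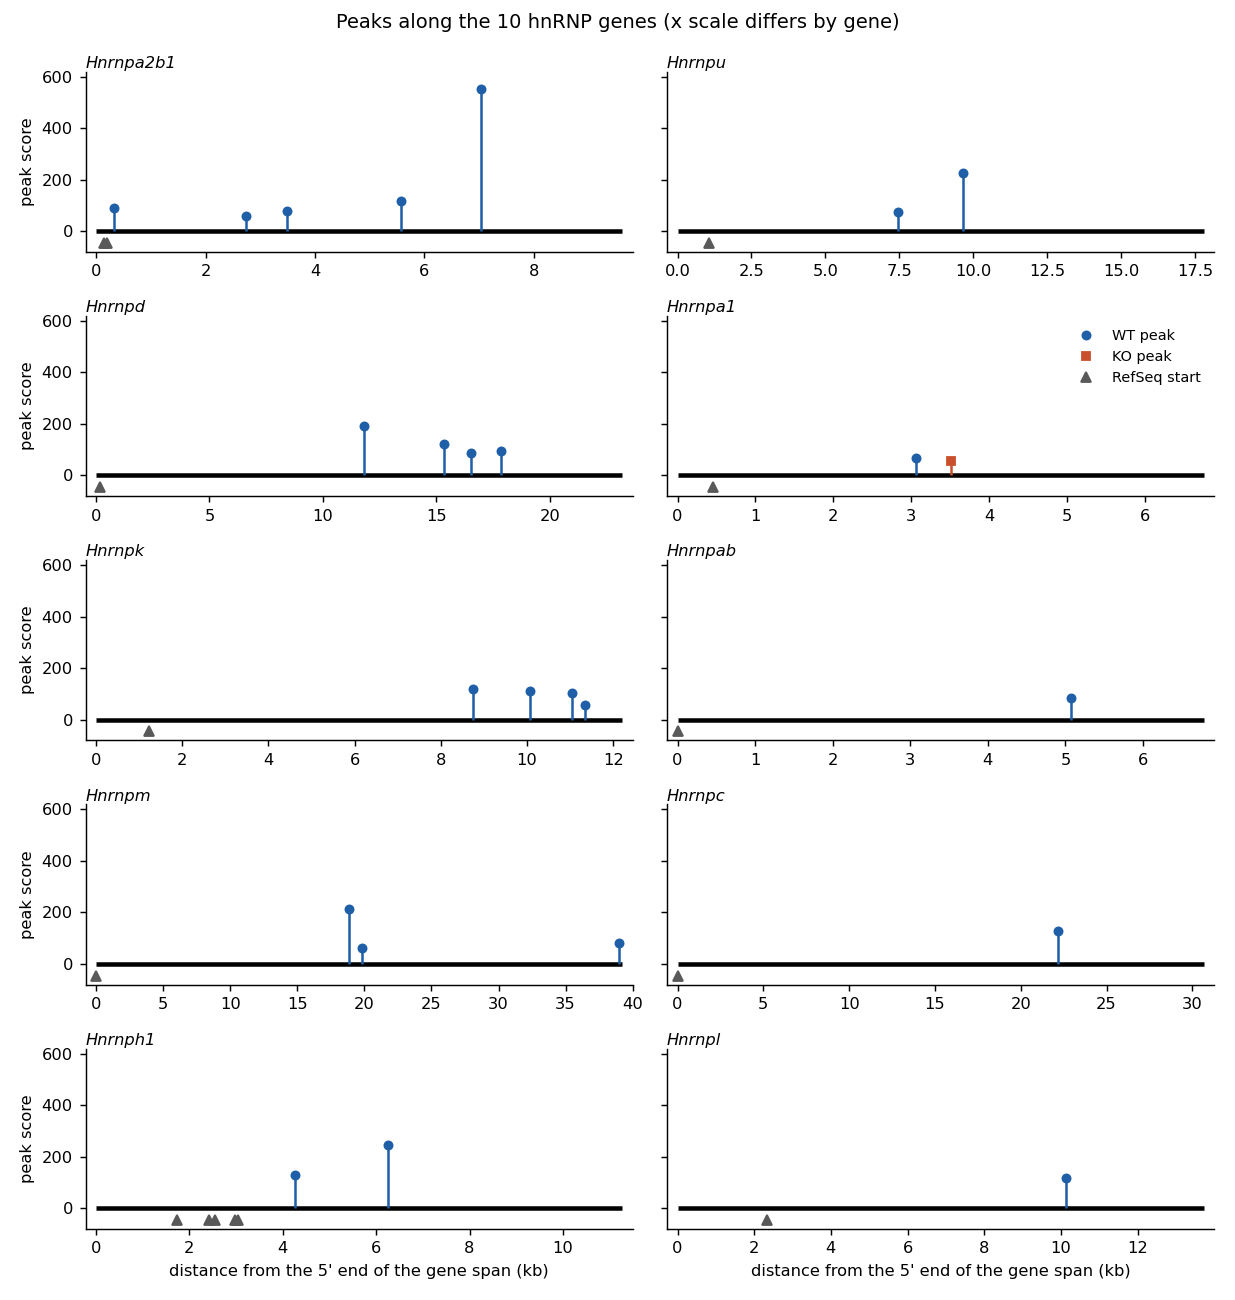
Peaks along the 10 hnRNP genes. Each panel is 1 gene, drawn from the 5′ end of its RefSeq span (black line) in kb on a scale of its own, and the height of a stem is the deposited peak score; circles are WT peaks, the square is the KO peak and triangles mark RefSeq starts. The 5 WT peaks of Hnrnpa2b1 run along most of the gene, the 4 of Hnrnpk lie in its 3′ part, and the highest score is 553 in Hnrnpa2b1.

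Independently of where the peaks lay, the upstream sequence of the genes was read for letters known from KLF binding. KLF factors recognise GC-rich sequence with the core GGGTG, which reads CACCC on the other strand, and the forms GGGGTGT and GGGCGTG were searched as well, on both strands. RefSeq gave 15 promoter windows for the 10 genes, each of 250 bases before and 50 after a start, of which 5 belonged to Hnrnph1. The core was found in windows of 3 of the 10 genes, Hnrnph1, Hnrnpl and Hnrnpu, compared with 61.7% of 17492 protein-coding genes. By windows this was 7 of the 15 (46.7%), against 59.5% of 21263 windows, and 5 of the 7 were those of Hnrnph1. GGGCGTG, or CACGCCC on the other strand, was found in 4 of the 15 windows (26.7%, against 10.9%), of 4 genes, Hnrnpd, Hnrnph1, Hnrnpl and Hnrnpm, compared with 12.4% of genes. GGGGTGT, or ACACCCC on the other strand, contains the core and was in 0 of the 15 windows, against 5.40%. The windows held a median of 27 CG dinucleotides and 60.0% G and C, compared with 13 and 56.3% over all such windows. A match of letters is not a binding site, and no peak lay in these windows in either list.

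The upstream sequences of 3 genes are shown, 250 bases each, from RefSeq GRCm38.p6: Hnrnpa2b1, the only one of the 10 genes with a peak within 1 kb of a start, and Hnrnph1 and Hnrnpl, whose window held both the core and GGGCGTG. Capitals mark these matches, and each sequence runs 5′ to 3′ on the strand of the gene. They are chr6:51469895-51470144 on the minus strand, chr11:50376740-50376989 on the plus strand and chr7:28810640-28810889 on the plus strand. Hnrnpa2b1 has 2 RefSeq starts, and the sequence shown precedes the start at 51469894. Its other start, 51469845, is the closer to the peak within 1 kb.
Hnrnpa2b1: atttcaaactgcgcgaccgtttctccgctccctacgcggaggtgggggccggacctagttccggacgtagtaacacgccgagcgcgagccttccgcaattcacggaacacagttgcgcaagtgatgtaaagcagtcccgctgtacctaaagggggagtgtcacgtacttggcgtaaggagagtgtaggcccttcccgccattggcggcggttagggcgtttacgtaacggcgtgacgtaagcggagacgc
Hnrnph1: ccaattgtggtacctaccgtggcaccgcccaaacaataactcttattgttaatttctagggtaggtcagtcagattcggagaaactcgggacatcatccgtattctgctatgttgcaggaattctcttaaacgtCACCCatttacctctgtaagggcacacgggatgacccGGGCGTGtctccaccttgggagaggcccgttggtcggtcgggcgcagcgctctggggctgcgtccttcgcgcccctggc
Hnrnpl: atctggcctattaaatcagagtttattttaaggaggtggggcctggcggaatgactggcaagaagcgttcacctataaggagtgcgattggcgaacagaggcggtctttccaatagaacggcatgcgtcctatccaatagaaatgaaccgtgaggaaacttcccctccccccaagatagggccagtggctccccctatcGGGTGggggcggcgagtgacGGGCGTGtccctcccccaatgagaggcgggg

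Hnrnpa1 and Hnrnpa2b1 encode the A and B type core proteins of hnRNP particles, which bind RNA through paired recognition motifs and a glycine-rich tail. Hnrnpa2b1 (gene 53379, chromosome 6, 51460434 to 51470048, minus strand) carried the highest and widest of the 24 WT peaks, at 51462694 to 51463346, with a width of 653 bp and a score of 553. That peak ranked 95 in the WT list, above 95.8% of its peaks, and was the only one of the 24 among the top 10% of WT scores. In the direction of transcription, the other 4 peaks scored 89.1, 57.7, 77.4 and 116, with midpoints 0.34, 2.75, 3.49 and 5.57 kb from the 5′ end of the span, before the highest at 7.03 kb. Peaks covered 12.7% of this span of 9.62 kb, the largest covered share of the 10 genes, at 5.20 peaks per 10 kb. The peak nearest the 5′ end (51469646 to 51469777) had its midpoint 134 bp downstream of the closest RefSeq start. Hnrnpa2b1 lies head to head with Cbx3, a heterochromatin protein gene, whose span is separated from it by 105 bp and held 0 peaks in both lists.

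Hnrnpa1 (gene 15382, chromosome 15, 103239943 to 103246698, plus strand) was the only one of the 10 genes with a peak in both lists. Of the 1362 protein-coding genes with a WT peak, 156 also had a KO peak (0.713% of all protein-coding genes). The WT peak of Hnrnpa1 lay at 103242952 to 103243055 and scored 66.8, higher than 28.5% of WT peaks. The KO peak lay at 103243380 to 103243521 and scored 54.1, higher than 25.3% of KO peaks and close to the lowest score in that list, 50.03. The 2 peaks did not overlap and were 324 bp apart. Both were low within their own list, and scores of different lists are not comparable as levels. Hnrnpa1 also stood head to head with a heterochromatin protein gene, Cbx5, 38 bp away, which held 0 peaks in both lists.

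A gene named after Hnrnpa1 in the gene table also carried WT peaks. Hnrnpa1l2-ps, annotated as a pseudogene on chromosome 13 at 74864232 to 74865733, held 2 WT peaks and 0 KO peaks. They lay at 74864866 to 74864980 (115 bp, score 75.9) and 74865051 to 74865221 (171 bp, score 130). Both scored above the single WT peak of Hnrnpa1 itself. The other gene with such a name, Hnrnpa1l2-ps2, listed as protein-coding on chromosome 15, had 0 peaks within 10 kb. Copies of the other 9 genes are not identified by name in the table, and reads from near-identical copies and their parent can be placed on either, so peaks of Hnrnpa1 and of its copy are uncertain.

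Hnrnpd and Hnrnpab encode closely related proteins that bind AU-rich RNA, and hnRNP D, also called AUF1, is known for its effect on mRNA decay. Hnrnpd (gene 11991, chromosome 5, 99955935 to 99979130, minus strand) held 4 WT peaks between 51.0 and 77.0% of the way along the span. From the 5′ side they scored 192, 123, 87.4 and 95.3, at 11.8, 15.3, 16.5 and 17.9 kb from the 5′ end. The highest was therefore the one nearest the 5′ end, at 99967214 to 99967388, and 3 of the 4 lay above the WT list's median score of 88.3. Hnrnpab (gene 15384, chromosome 11, 51600100 to 51606881, minus strand) held 1 peak, at 51601742 to 51601882, with a score of 84.2. That midpoint also fell in the span of Phykpl, a gene on the opposite strand that overlaps Hnrnpab by 3165 bp, so the peak cannot be assigned to either gene alone.

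Hnrnpk encodes a poly(C)-binding protein with KH domains. In Hnrnpk (gene 15387, chromosome 13, 58391132 to 58403343, minus strand) all 4 WT peaks lay in the 3′ part of the gene, between 71.5 and 93.0% along the span. From the 5′ side their scores were 119, 112, 105 and 56.0, at 8.74, 10.1, 11.0 and 11.4 kb from the 5′ end. Scores were thus lower toward the 3′ end, and the last of the 4 was the lowest score among the 24 WT peaks. The pair nearest the 3′ end, at 58391926 to 58392053 and 58392156 to 58392457, had midpoints 317 bp apart, the closest spacing in the 10 genes.

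The microRNA gene Mir7-1 lies inside Hnrnpk and served as a landmark. Its hairpin, at 58392779 to 58392886 on the same strand, fell between the second and the third peak counted from the 3′ end, 321 bp from the one and 311 bp from the other, and no peak overlapped it. The mature microRNA from RefSeq GRCm38.p6 is shown to identify this landmark, with its seed, bases 2 to 8, in capitals.
mmu-miR-7a-5p: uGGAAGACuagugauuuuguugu

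Hnrnph1 encodes a protein that binds G-rich RNA and regulates splicing. Hnrnph1 (gene 59013, chromosome 11, 50375257 to 50386528, plus strand) held 2 WT peaks, at 50379415 to 50379641 (227 bp, score 130) and 50381375 to 50381657 (283 bp, score 245). Both lay downstream of all 5 RefSeq starts, the first by 1.24 kb and the second by 3.23 kb from the nearest start. Its higher peak ranked 279 in the WT list, above 87.6% of peaks, and was the second highest of the 24.

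Hnrnpu encodes scaffold attachment factor A, which binds both RNA and chromatin. Hnrnpu (gene 51810, chromosome 1, 178321108 to 178338891, minus strand) held 2 WT peaks near the middle of the gene, 2.18 kb apart. The one closer to the 5′ end, at 178331386 to 178331478, was the narrowest of the 24 at 93 bp and scored 75.6. The other, at 178329066 to 178329432, was 367 bp wide and scored 225, the third highest of the 24.

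Hnrnpm encodes a splicing regulator, and its span is the longest of the 10 at 39.2 kb (gene 76936, chromosome 17, 33646233 to 33685458, minus strand). It held a pair of WT peaks close to the midpoint, at 33666500 to 33666687 (score 213) and 33665481 to 33665724 (score 61.6), 991 bp apart. A further peak at 33646354 to 33646554 (score 82.2) lay 19.1 kb away and 221 bp from the 3′ end, the closest of the 24 to the end of a span. The other 13 spacings between neighbouring WT peaks in these genes were all below 4 kb.

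Hnrnpc encodes a core protein that binds uridine-rich stretches, and Hnrnpl one that binds CA-rich RNA. Hnrnpc (gene 15381, chromosome 14, 52073377 to 52104039, minus strand) held a single WT peak, at 52081789 to 52081902 (114 bp), which scored 129 and lay 22.2 kb from the 5′ end. With 0.33 peaks per 10 kb it had the lowest density of the 10 genes. Hnrnpl (gene 15388, chromosome 7, 28808546 to 28822268, plus strand) held a single peak at 28818608 to 28818738 (131 bp), with a score of 115. The single peaks of Hnrnpc, Hnrnpl and Hnrnpab lay at nearly the same relative place, 72.4, 73.8 and 74.8% along the span, while that of Hnrnpa1 lay at 45.3%.

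The WT peaks of the 10 genes scored from 56.0 to 553 with a median of 108, compared with a median of 88.3 over all WT peaks and 88.9 over the 1241 WT peaks in other protein-coding spans. Of the 24, 15 were at or above the WT median and 9 below it. The highest peak of 8 genes reached that median, and Hnrnpa1 and Hnrnpab did not. Widths ran from 93 to 653 bp with a median of 173 bp, against 156 bp over the WT list. Peaks of 1 gene are not independent of each other, and the score depends on the depth and background of a library.

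**Figure D2:**
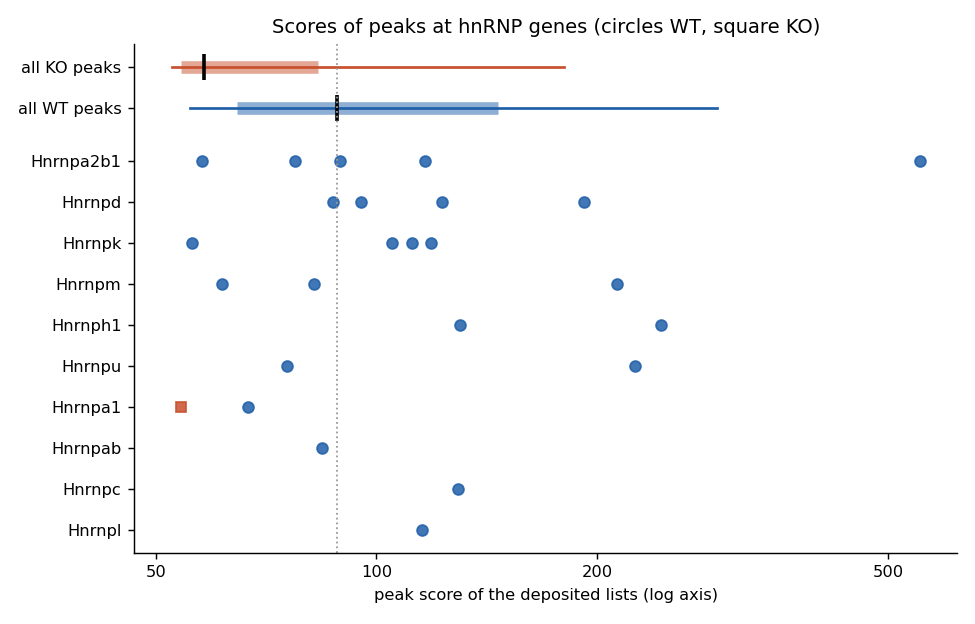
Scores of the peaks at each hnRNP gene on a log axis, circles for WT and the square for KO. The bars at the top show all peaks of each list from percentile 10 to 90 (thin) and 25 to 75 (thick) with the median as a tick, and the dotted line is the WT median of 88.3; 15 of the 24 WT peaks lie at or above it, and the KO peak of Hnrnpa1 at 54.1 lies below the KO median of 58.1.

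Along the genes, most peaks lay past the midpoint and away from the starts. Of the 24 WT peaks, 17 (70.8%) were nearer the 3′ than the 5′ end of the span. The share was 66.2% of 999 peak assignments in other protein-coding genes of known strand. A peak in overlapping genes counted there once per gene. When spans were divided into 5 equal parts from the 5′ end, the peaks of the hnRNP genes numbered 1, 3, 8, 8 and 4. In other genes the shares in the same parts were 16.0, 10.9, 16.5, 23.1 and 33.4%, so the last part held the most peaks there and the third and the fourth in the hnRNP genes. Within 1 kb of a RefSeq start lay 1 of the 24 (4.17%), in Hnrnpa2b1, compared with 11.4% in other genes. These differences were not tested, since positions entered the choice of the genes. Spans include predicted transcripts, and the gene table gives no exons, so whether a peak is exonic or intronic was not analysed here.

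**Figure D3:**
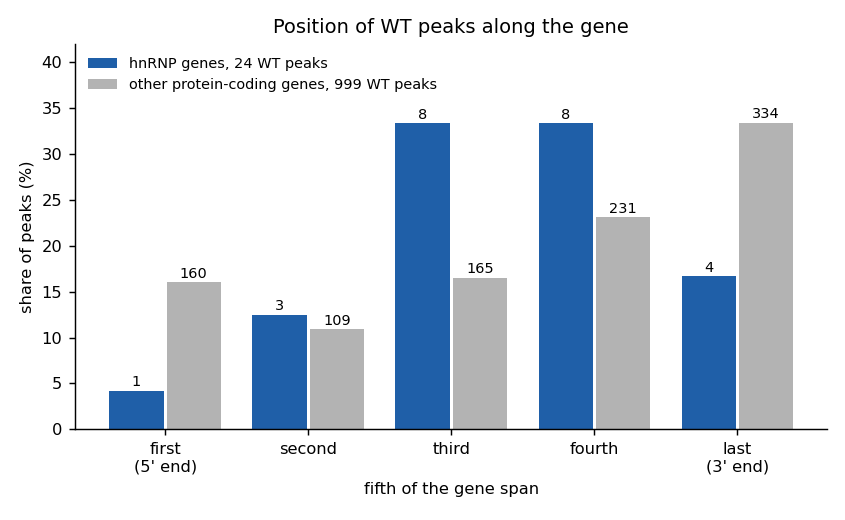
Share of WT peaks in each of 5 equal parts of the gene span, from the 5′ end on the left, in percent, with peak numbers above the bars. Blue bars are the 24 peaks of the 10 hnRNP genes, with 8 peaks each in the third and the fourth part. Grey bars are 999 peak assignments to other protein-coding genes, counted once per gene, with the largest share in the last part.

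The 6 genes with 2 or more WT peaks gave 14 spacings between neighbouring midpoints, with a median of 1.39 kb and a range of 0.32 to 19.1 kb. In other protein-coding genes, 454 spacings had a median of 1.76 kb, and 65.4% were below 4 kb. Hnrnpa2b1 was the gene whose peaks spanned the longest part, 69.6% of the gene, compared with 51.3% in Hnrnpm, 26.0% in Hnrnpd and 21.4% in Hnrnpk. In length, the stretch was longest in Hnrnpm, at 20.1 kb, and 6.69 kb in Hnrnpa2b1. The spans of the 10 genes had a median of 13.0 kb, shorter than the 31.1 kb of 819 other protein-coding genes with a WT peak in the span, and held a median of 1.48 peaks per 10 kb against 0.45. A short gene with 1 peak has a high density by construction, so these densities describe the genes and do not compare them.

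No peak lay in the 10 kb on either side of the hnRNP genes. Within this distance lay 16 other protein-coding genes, of which 15 held no peak in their span in either list. The exception was Phykpl with the peak it shares with Hnrnpab. Of all 21887 protein-coding genes, 819 besides the hnRNP genes held a WT peak in their span. Most genes thus had none, and nothing is read from the count of neighbours. Because all peaks of the hnRNP genes lay inside their spans, the limit of 10 kb decided none of them. The nearest WT peak beyond it was 29.5 kb from Hnrnpa1 (score 86.5), followed by 57.4 kb from Hnrnpd (score 223). The latter peak is that of Hnrnpdl given below. The farthest such WT peak was 2036 kb from Hnrnpa2b1. The nearest KO peak beyond 10 kb lay between 147 kb from Hnrnpab and 4960 kb from Hnrnpu.

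Other hnRNP genes had WT peaks too. Among 10 further genes with an Hnrnp symbol, 5 had a WT peak and none a KO peak, against 6.22% and 2.34% of all protein-coding genes. Hnrnpdl, a relative of Hnrnpd, had 1 (score 223), Hnrnpul2, a relative of Hnrnpu, 1 (218), Hnrnph3 had 2 (highest 178), Hnrnpa0 2 (highest 111) and Hnrnpr 2 (highest 83.0). Hnrnpa3, Hnrnpf, Hnrnph2, Hnrnpll and Hnrnpul1 had none in either list. Of 10 hnRNP proteins with other symbols, 5 had a WT peak. Pcbp2, a poly(C)-binding relative of hnRNP K, held 6, the highest at 267, while Syncrip (hnRNP Q) and Pcbp1 held 2 each, with highest scores of 350 and 265. Rbmx (hnRNP G) held 1, at 199, and the fifth, Ptbp2, counted through a peak 8.90 kb outside its span, in the pseudogene Gm4332. Without peaks in pseudogene spans, 4 of these 10 genes had a WT peak. Ptbp3 alone of these had a KO peak.

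Genes of other splicing and RNA-binding proteins carried WT peaks as well. The share over all protein-coding genes, to be set beside each list, was 6.22% for WT peaks. Of 13 SR splicing factor genes, whose proteins often oppose hnRNPs in splice site choice, 5 had a WT peak. Srsf1 held 5 (highest score 328), Srsf2 held 2 (276) and Srsf9 held 2 (134), while the peak counted for Tra2a, with a score of 1312, lay 7.36 kb outside its span and overlapped a KO peak. Of 22 core spliceosome genes, 5 had a WT peak, 4 of them inside the span. Their highest score was 87.4, in Snrnp70, below the WT median. Of 17 other nuclear RNA-binding protein genes, 10 had a WT peak, among them the RNA helicase gene Ddx5 with 4 (highest 191), Ewsr1 (179), Qk (122) and Tardbp (90.7). KO peaks were counted for 1 SR gene, 1 core spliceosome gene and 0 of the 17, against 2.34% of all protein-coding genes. Neither of these KO peaks lay inside the gene span. The median number of WT peaks per gene was 2 for the 10 hnRNP genes, 0.5 for both other hnRNP lists, 0 for SR and core spliceosome genes, 1 for the other nuclear RNA-binding proteins and 0 over all protein-coding genes. The lists were drawn up with earlier results of these data known, and peaks in WT without a KO partner cannot be told apart here from a difference in depth between the libraries.

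**Figure D4:**
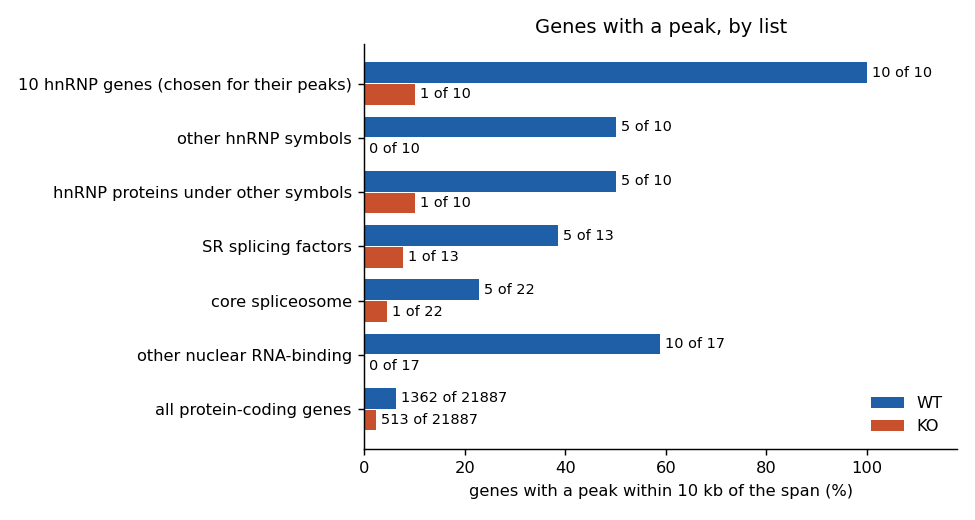
Share of genes with a peak within 10 kb of the span, in percent, for WT (blue) and KO (red) in each gene list, with numbers of genes beside the bars. The 10 hnRNP genes were chosen for their peaks, so their bar of 10 of 10 is no finding; 5 of 10 other Hnrnp symbols and 1362 of 21887 protein-coding genes had a WT peak.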

How the data were processed

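KLF4 ChIP-seq was deposited as 1 list of peaks for the WT library and 1 for the KO library. Per the submitters' processing notes, Bowtie 1.0 and SAMtools 0.1.18 were used with build mm10; the peak names show MACS, while the sources used here name neither its version, settings and control nor how duplicate or repeated reads were handled. The deposited score per peak was taken to be the negative log10 of the p-value, multiplied by 10, and the lowest scores, 50.0 and 50.03, fit a limit of 1e-05 on that scale; scores were ranked within a list only. Strand and starts came from the RefSeq promoter table and spans from the gene table, both GRCm38.p6, whose chromosomes have mm10 coordinates; all 10 genes matched by symbol. Among peaks in other protein-coding spans, 274 gene assignments without a strand were left out of positions.

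A gene was given every peak with its midpoint in the span or within 10 kb, and peaks were shared from 1 bp of overlap. No test was run, because the members and lists were chosen with earlier results of these data known. Genes named are all 10 members, up to 4 highest-scoring genes per list, genes sharing a peak with a member, and copies by name; Hnrnpr, Ptbp2, Ptbp3, Cbx3, Cbx5 and the Hnrnp genes without a peak were added after their values were seen. Overlap was computed in Python in place of bedtools. Planned protein features were not analysed here. Assignment was checked on simulated peaks. Python 3.11.15, numpy 2.4.6, pandas 2.3.3 and matplotlib 3.10.9 were used.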

Additional observations from a re-analysis of the deposited data

How the results depend on the processing

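Of 91 alternative values, 79 stayed within 1.5 times the reported one and 12 moved further. The counts for the 10 hnRNP genes were the same with the span alone, with 2500 bp around it, with the nearest gene and without peaks in pseudogene spans. All their peaks lay inside the spans and none in a pseudogene span. These settings therefore could not change those counts, which are among the 79. Likewise, cutting the WT list could not change any KO count, and no setting could lower a KO count that was already 0. The 79 thus include values that could not move, and their number is no measure of stability. With only peaks reaching the median score of their list, 8 of the genes kept 15 WT peaks, a median of 1 per gene, and Hnrnpa1 and Hnrnpab had none; 0 of the genes had a KO peak, so KO peaks fell to 0. With WT cut to its 1153 highest peaks, 8 genes kept 16. No WT peak of the 10 genes came within 250 bp of a KO peak, and none overlapped one by 50% of both. The latter had to follow from the absence of any overlap of 1 bp. Shares over the whole WT list are not given here, so nothing about these genes is read from these counts. Among the other lists, the KO count of SR genes was 0 with the span alone and 0 with 2500 bp around it, and that of core spliceosome genes was 0 with the span alone and 0 above the median score. WT counts of core spliceosome genes fell to 0 above the median score and to 1 at equal list size, and those of the other nuclear RNA-binding proteins to 4 and 4. Depth is unknown, and 1 library per genotype allowed no replicate to be left out. No paired analysis was possible because there is 1 library per genotype.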
